A study of Rattus norvegicus with 6 samples.

Results

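The genes described here are known for their expression in young, migrating and differentiating neurons, and they were followed in rat lateral ventricular choroid plexus at embryonic day 15 (E15) and in the adult. They were chosen by name from the authors' table of genes, with 10 names sought (Dcx, Tubb3, Stmn2, Gap43, Elavl3, Elavl4, Tbr1, Eomes, Reln and Crmp1). That table holds the 10653 genes the authors called between the ages, out of 29479 gene identifiers counted. It held 9 of the names, and Eomes, with no row under that name, was not analysed here. Both lateral ventricular plexuses were dissected from untreated Sprague-Dawley rats, and tissue of 10 animals was pooled for each RNA sample. There were 3 pools of E15 embryos and 3 of 6 week old adults, with 1 library per pool, and the comparison of the ages asks which genes are enriched in the developing and which in the mature plexus. The plexus was taken whole, with its stroma and vessels, and in such bulk RNA fewer cells of a type and less RNA per cell cannot be told apart.

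A newborn neuron leaves the ventricular wall, extends a growth cone and migrates to its place, with a cytoskeleton built from neuron-specific tubulin and the proteins that bind it. RNA-binding proteins of the Elav family stabilise and splice neuronal transcripts, and the transcription factors Tbr1 and Eomes mark steps in the making of glutamatergic cortical neurons. Reelin, secreted by Cajal-Retzius cells at the surface of the embryonic cortex, guides migrating neurons. The lateral ventricular plexus grows next to the cortical hem, which is a source of Cajal-Retzius cells.

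Library totals lay between 17875089 and 19204440 counts. The 10 genes of highest count took 4.86% to 5.90% of an E15 library and 24.2% to 27.3% of an adult one. Of 14 choroid plexus epithelial markers 11 were found by name, which required that the authors had called them between the ages. Of these 11, 11 were higher in the adult, as were 41.7% of the genes tested that the authors list. Nothing is read from this number. Ttr (transthyretin) made up 80.4% to 88.3% of the summed normalized counts of the markers. The other 10 markers summed to 95089 to 96837 at E15 and 606640 to 625313 in the adult. No pool had fewer than 566 reads of any of the 11. The spread between pools of the same age exceeded counting error, most of all for E15 replicate 1, and each of the 6 was kept as a sample.

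Of the 9 developing neuron genes, 7 were higher at E15, 1 (Reln) was higher in the adult and 1 (Gap43) did not pass the test. The quasi-likelihood test of edgeR, adjusted over 16643 genes by the Benjamini-Hochberg method with a threshold of 0.05, called 64.0% of all genes tested, 34.7% as higher at E15 and 29.3% as higher in the adult. A gene had a name only if the authors had called it in the same comparison, and 92.0% of the genes tested that they list were called here (50.3% at E15 and 41.7% in the adult), so nothing is read from the number of members called. The median log2 fold change (E15 over adult) was 3.40 for the 9 genes, against 0.14 over all genes tested and 0.74 over those in the authors' table. Levels are given below as normalized counts, that is, counts scaled to a common library of 19267327, with pools in the order of replicates 1, 2 and 3. They are not divided by transcript length, so levels were compared between pools and not between genes.

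Dcx (ENSRNOG00000032104) encodes doublecortin, which binds microtubules in migrating neurons. Its normalized counts were 1044, 279.5 and 462 in the E15 pools, against 0, 10.4 and 2.75 in the adult pools. The lowest E15 pool was far above the highest adult pool, and the adult values rest on 0, 8 and 2 reads. The fitted log2 fold change was 7.0 (SE 0.75, 3 pools per age), or 128-fold, with an adjusted p of 2.95e-05 in edgeR. From the counts alone the ratio was 129, with an exact 95% interval of 70.2 to 270.1 that covers counting error only. Without Adult replicate 2, where 2 adult reads remained, this ratio was 411 (114 to 3393), and without E15 replicate 1 it was 81.3.

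Tbr1 (ENSRNOG00000005049) encodes the T-box factor of early-born glutamatergic neurons. It was at 221, 73.9 and 198 normalized counts at E15, against 0, 5.19 and 0 in the adult, where 4 reads lay in a single pool. The ages did not overlap, and the log2 fold change was 6.41 (SE 0.80), or 85.1-fold, with an adjusted p of 8.16e-05 in edgeR. Without Adult replicate 2 the gene had no adult count at all. The level at E15 was then at least 76.1-fold higher, with 3 counts over the adult pools as the floor. The ratio of counts was 89.9 with all pools, 59.8 without Adult replicate 1 and 59.1 without Adult replicate 3.

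Reln (ENSRNOG00000021441), the gene of the secreted protein Reelin, ran the other way. It was at 1989, 2477 and 2292 normalized counts at E15, against 12780, 13489 and 12747 in the adult. All adult pools were above all E15 pools, and pools of an age lay close together, with an E15 mean of 2253 ± 247 and an adult mean of 13005 ± 419 (SD, n = 3). Its log2 fold change of -2.53 (SE 0.11) made it 5.77-fold higher in the adult, with an adjusted p of 1.09e-07 in edgeR. Reln stayed higher in the adult under each of the scalings tried, with the smallest change, -1.72 on the log2 scale, when total counts alone were used.

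**Figure D1:**
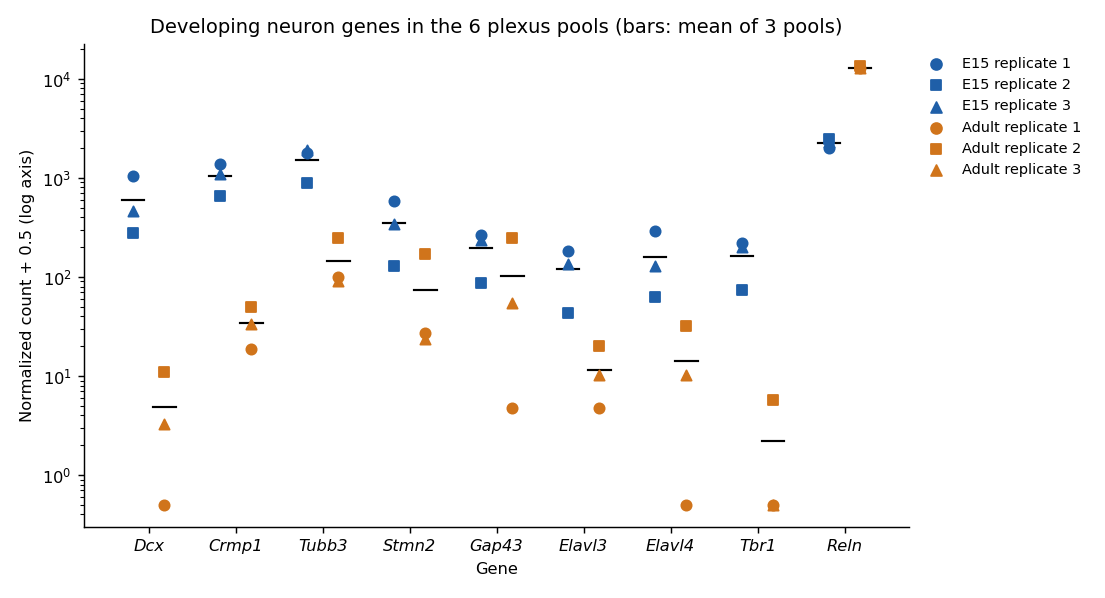
Normalized count plus 0.5 of the 9 genes (log axis) in each of the 6 pools, E15 in blue and adult in orange, with the replicate number shown by the symbol and the mean of 3 pools by a bar. Dcx and Tbr1 show wide gaps between the ages, the ages overlap for Stmn2 and Gap43, and for Reln the adult pools (12747 to 13489) lie above the E15 pools (1989 to 2477).

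The sequences just before the transcription start are shown for Dcx and Tbr1, which had the largest fitted E15 excess of the 9 genes, and for Reln, which was higher in the adult, so that their base composition can be set side by side. They are RefSeq sequences of build GRCr8, 250 bases long and ending at the base before the start, 5′ to 3′ on the strand of the gene, with CG dinucleotides in capitals. Dcx lies on the minus strand (chrX:112304162-112304411), Tbr1 on the plus strand (chr3:66759553-66759802) and Reln on the plus strand (chr4:13628318-13628567).
Dcx: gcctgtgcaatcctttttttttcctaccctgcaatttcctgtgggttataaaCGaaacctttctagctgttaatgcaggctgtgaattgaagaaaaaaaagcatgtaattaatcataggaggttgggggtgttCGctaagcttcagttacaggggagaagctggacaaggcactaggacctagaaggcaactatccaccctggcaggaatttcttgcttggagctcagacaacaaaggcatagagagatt
Tbr1: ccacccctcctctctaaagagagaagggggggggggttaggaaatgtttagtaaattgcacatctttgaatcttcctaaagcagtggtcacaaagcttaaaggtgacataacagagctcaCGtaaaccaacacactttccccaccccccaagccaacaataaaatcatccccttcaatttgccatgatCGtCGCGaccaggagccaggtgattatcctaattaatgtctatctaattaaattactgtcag
Reln: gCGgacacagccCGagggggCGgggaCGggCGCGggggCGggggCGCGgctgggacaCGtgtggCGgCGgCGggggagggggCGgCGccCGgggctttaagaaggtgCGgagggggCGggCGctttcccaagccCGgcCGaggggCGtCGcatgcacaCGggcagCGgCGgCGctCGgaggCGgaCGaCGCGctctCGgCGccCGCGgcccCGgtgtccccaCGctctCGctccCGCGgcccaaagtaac
The Dcx sequence had a GC content of 44.0% with 2 CG dinucleotides, and that of Tbr1 had 44.0% with 4. The Reln sequence had 80.0% with 41, against medians of 51.2% and 5 over 33469 such windows. A window was found for 7 of the 9 genes, and not for Stmn2 and Gap43. Among the genes that were higher at E15, the GC content of the others ran from 49.6% in Elavl4 (6 CG dinucleotides) through 68.0% in Tubb3 (21) and 75.6% in Elavl3 (35) to 76.4% in Crmp1 (30). E15 genes were thus found over a wide range of composition. In windows of 300 bases that also hold the 50 bases from the start on, 3 motifs were sought on both strands, each counted on its own, and the E-boxes differ in a single letter and cannot lie at the same place. The E-box CAGCTG was in 15.1% of all windows, the E-box CAGATG in 16.6% and the T-box motif AGGTGTGA in 1.10%. None of the 7 windows held any of the 3, which says only that these letters are not there.

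The cytoskeletal genes other than Dcx were Tubb3, Crmp1, Stmn2 and Gap43. Tubb3 (ENSRNOG00000017209) encodes the neuron-specific class of beta-tubulin. Its normalized counts were 1769, 889 and 1919 at E15, against 99.1, 247 and 90.6 in the adult, with means of 1525 ± 557 and 145 ± 87.8 (SD, n = 3). The ages did not overlap, and the gene was 10.4-fold higher at E15 (log2 3.38, SE 0.41, edgeR adjusted p 7.36e-05). Without Adult replicate 2 the fold of Tubb3 from the counts was 15.6 in place of 10.3. Crmp1 (ENSRNOG00000004781) encodes a collapsin response mediator protein, which acts in growth cone signalling. It was at 1373, 658 and 1101 at E15, against 18.4, 49.3 and 33.0 in the adult, again without overlap. Crmp1 was 30.7-fold higher at E15, with a log2 fold change of 4.94 (SE 0.37) and an adjusted p of 2.55e-06 in edgeR.

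Stmn2 (ENSRNOG00000011705) encodes stathmin 2, a tubulin-binding protein of growth cones. Its normalized counts were 582, 127 and 340.4 at E15, against 26.9, 170.1 and 23.3 in the adult. Adult replicate 2 was above E15 replicate 2, so the ages overlapped. The log2 fold change of 2.23 (SE 0.74), or 4.71-fold, had an adjusted p of 0.0247 in edgeR. The call was lost without Adult replicate 1 (log2 1.83, adjusted p 0.09 in edgeR) and without Adult replicate 3 (1.80, 0.0937), and without Adult replicate 2 the change was larger, at 3.77 (0.00183). Without E15 replicate 1 it was 1.65 (0.0482).

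Gap43 (ENSRNOG00000001528) encodes the growth-associated protein of extending axons, which adult neurons able to remodel also keep. It was at 264, 87.0 and 234 at E15, against 4.25, 248 and 53.6 in the adult. Adult replicate 2 exceeded E15 replicates 2 and 3 and held 82.0% of all adult reads of the gene. With all pools the log2 fold change was 0.93 (SE 0.86, edgeR adjusted p 0.371), with means of 195 ± 94.9 and 102 ± 129 (SD, n = 3). Without Adult replicate 2 it was 2.71 (SE 0.80), or 6.55-fold, with an adjusted p of 0.0192 in edgeR. The result for Gap43 therefore rested on whether a single adult pool was used.

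The neuronal RNA-binding proteins were represented by Elavl3 and Elavl4, the genes of HuC and HuD. Elavl3 (ENSRNOG00000013752) was at 182, 42.4 and 136 normalized counts at E15, against 4.25, 19.5 and 9.61 in the adult. Elavl4 (ENSRNOG00000023601) was at 287, 61.6 and 129 at E15, against 0, 31.2 and 9.61 in the adult. For both genes the lowest E15 pool was above the highest adult pool. Elavl3 was 10.5-fold higher at E15 (log2 3.40, SE 0.64, edgeR adjusted p 0.00123). Elavl4 was 11.4-fold higher (log2 3.51, SE 0.84, edgeR adjusted p 0.00495). Without Adult replicate 2 the ratios from the counts were 16.6 for Elavl3 and 31.4 for Elavl4, in place of 10.5 and 11.2, and that of Elavl4 was 6.75 without E15 replicate 1 and 7.43 without Adult replicate 1. These paralogs resemble each other in sequence, as do the beta-tubulins, and only reads with a single place in the genome had been counted, so part of their reads may be missing from the counts.

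The ages did not overlap in 7 of the 9 genes, 6 of them higher at E15, where 70.1% of all genes tested (38.0% as higher at E15) and 93.9% of those in the authors' list did not overlap. With 3 pools against 3 an exact two-sided permutation test of 1 gene cannot give a p below 0.10, and none was used.

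**Figure D2:**
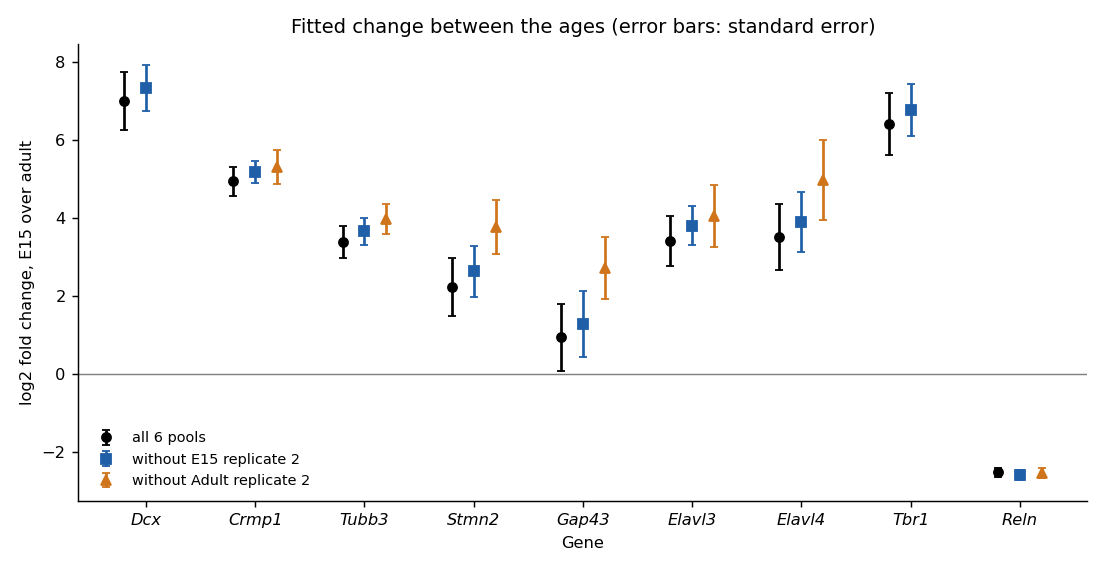
Fitted log2 fold change (E15 over adult) of the 9 genes with its standard error, for all 6 pools, without E15 replicate 2 and without Adult replicate 2. Leaving out Adult replicate 2 moved Gap43 from 0.93 to 2.71 and Stmn2 from 2.23 to 3.77, and Reln stayed between -2.60 and -2.53. Dcx and Tbr1 are not drawn without Adult replicate 2, where they had 2 and 0 adult reads.

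The pools of an age were unlike each other in these genes. Each pool was compared with the mean of the other pools of its age as a log2 ratio of normalized counts, with 0.5 added. E15 replicate 2 was the lowest E15 pool for 8 of 9 genes, all but Reln, where 30.4% of all genes tested had their lowest E15 value in it. In 7 of the 9 it lay 1 log2 unit or more below the others, as did 3.43% of all genes. E15 replicate 1 was the highest E15 pool for 7 of the 9, compared with 40.4% of all genes. In E15 replicate 2 the median of the 9 ratios was -1.50, against 0.02 over all genes. The levels in this pool ran from 26.7% (Elavl3) to 53.2% (Crmp1) of the mean of the other E15 pools for the 8 genes, and Reln was at 116%.

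Among the adult pools, Adult replicate 2 was the highest for 9 of 9 genes, compared with 33.1% of all genes tested. It lay 1 log2 unit or more above the others in 7 of them, compared with 8.28% of all genes, with a median of 2.54. Because adult counts are low, this median depends on what is added before the log, and with 5 in place of 0.5 it was 1.27. The pool held 80.0% of the adult reads of Dcx, 78.4% of those of Stmn2, 77.4% of those of Elavl4 and 36.2% of those of Reln. Summed over the 8 genes other than Reln, the normalized counts were 5722, 2219 and 4520 at E15, against 153, 780.4 and 222 in the adult. The sum in Adult replicate 2 thus lay between the other adult pools and the lowest E15 pool.

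**Figure D3:**
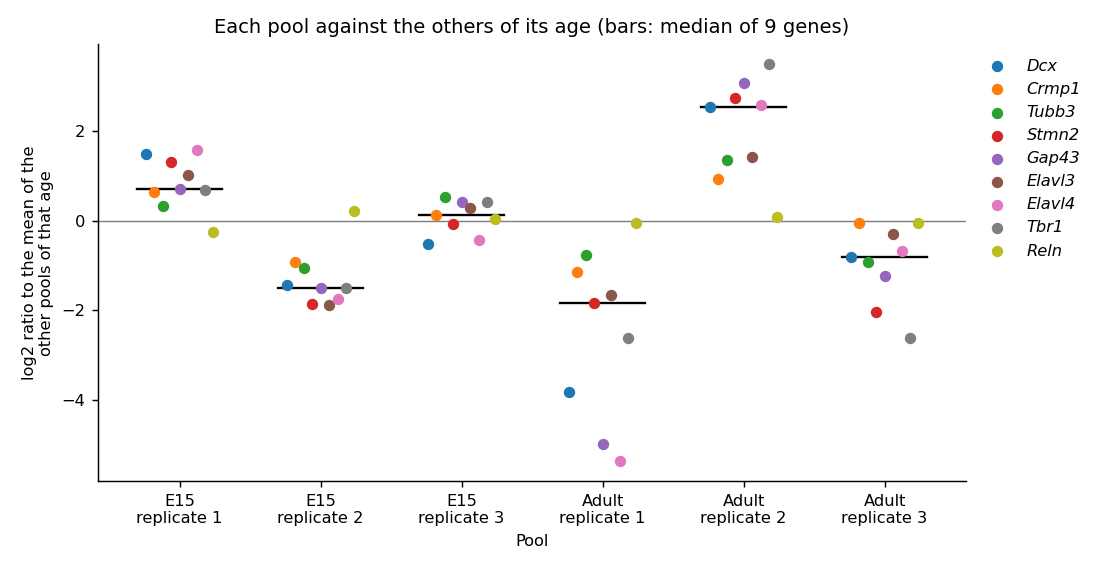
Log2 ratio of each pool to the mean of the other pools of its age for the 9 genes, with the median as a bar. In E15 replicate 2 all genes but Reln lie below 0 (median -1.50), in Adult replicate 2 all 9 lie above 0 (median 2.54), and Reln is close to 0 in each pool.

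Markers of mature neurons and astrocytes moved with the developing neuron genes in Adult replicate 2. Of 15 adult neuron markers 11 were found, and 10 of these were highest in this pool, with summed normalized counts of 1424, 2439 and 1250 in the adult and 3921, 2058 and 2572 at E15. Gria2 held 67.1% to 76.3% of the E15 sums, and the other 10 markers summed to 770.2, 1798 and 603 in the adult, against 1057, 487 and 845 at E15. Snap25, a synaptic membrane fusion protein, was at 103, 319 and 68.7 in the adult pools and at 59.7, 13.9 and 35.3 at E15. Syp (synaptophysin) was at 195, 644 and 125 in the adult, and without Adult replicate 2 neither was called between the ages (edgeR adjusted p 0.0731 for Snap25 and 0.353 for Syp). Of the 3 astrocyte markers found (of 6 listed), 3 were highest in Adult replicate 2, with sums of 2510, 4876 and 1872, and Gfap, the astrocyte filament protein, was at 640.0, 1169 and 251. None of these was at 0 in any pool. The part of neural tissue in the adult values of Gap43, Stmn2 and the other members was not tested.

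Markers of vessels, blood and stroma were also somewhat higher in Adult replicate 2. Endothelial markers were highest there in 6 of 6 cases (median log2 ratio 0.49), mesenchymal markers in 7 of 8 (0.51) and erythroid markers in 5 of 7 (0.52), against a median of 2.54 for the developing neuron genes. Over all genes tested 33.1% were highest in Adult replicate 2, with a median of 0.00. The 8 oligodendrocyte markers found (of 9) were all highest in Adult replicate 1, with sums of 7321, 3024 and 1799. The plexus epithelial markers had a median log2 ratio of 0.02 in Adult replicate 2 and of 0.11 in E15 replicate 2. Neurogenic transcription factors were highest in Adult replicate 2 in 4 of 20 cases, with a median of -0.06. However, 4 of the 20 had no adult read, which fixes their ratio at 0. Neurog2, Neurod2 and Scrt1 had 0 to 2 reads per adult pool. At such counts this median cannot be set beside that of the developing neuron genes.

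At E15 the same lists were compared between the pools. Neurogenic transcription factors were lowest in E15 replicate 2 in 17 of 20 cases (median -1.10), and neural progenitor markers in 9 of 13 (median -0.66). Of all genes tested, 30.4% were lowest in E15 replicate 2, with a median log2 ratio of 0.02. Adult neuron markers were lowest there in 8 of 11. The markers of Cajal-Retzius cells and the cortical hem were lowest in that pool in 5 of 14 cases and highest in 3. Calb2, Lhx9 and Lhx1 were among the lowest. Their sums over the list of 12456, 12924 and 13115 were alike in the E15 pools, but Rspo2 alone held 36.3% to 38.2% of them. The genes of next highest count were Rspo3, Wnt8b and Rspo1, so the sums say little about genes with fewer reads. Unlike the neurogenic factors, endothelial, erythroid and mesenchymal markers had medians above 0 in E15 replicate 2, at 0.27, 0.25 and 0.25. Over all genes it was E15 replicate 1 that stood apart, since chi-square values per degree of freedom were 56.8 and 47.5 against the other E15 pools and 5.43 between these. The part of other cell types in the differences of the members between E15 pools was not tested.

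**Figure D4:**
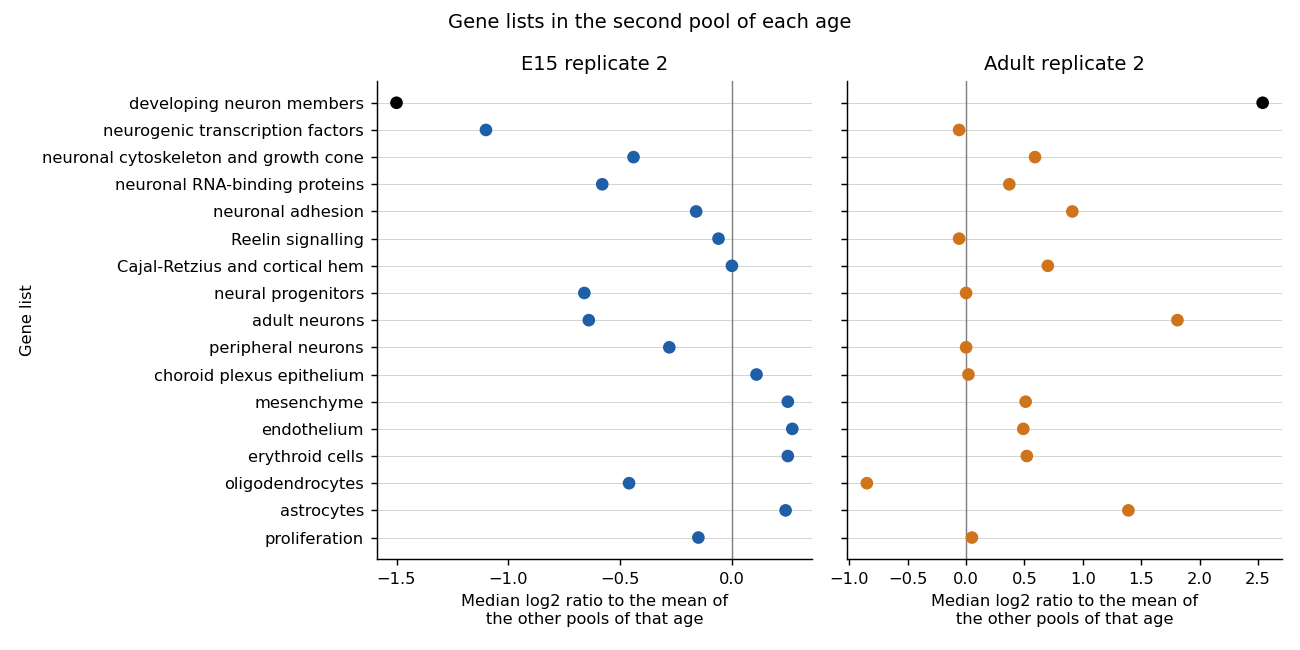
Median log2 ratio to the mean of the other pools of the age, for the 9 developing neuron genes (black) and each of 16 gene lists, in E15 replicate 2 (left) and Adult replicate 2 (right). The 9 genes lie at -1.50 and 2.54, adult neuron markers reach 1.81 and astrocyte markers 1.39 in Adult replicate 2, and plexus epithelial markers lie near 0 in both pools.

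The wider set of genes around the members was taken from 5 lists. Of 81 genes listed, 62 were found by name and tested, of which 55 were higher at E15, 4 were higher in the adult and 3 did not pass the test. As for the members, a name required that the authors had called the gene, and 92.0% of the genes tested that they list were called here. By direction 50.3% were higher at E15 and 41.7% in the adult. Nothing is therefore read from the number called in these lists or in those of cell type markers.

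Among neurogenic transcription factors 20 of 20 found (22 listed) were higher at E15, with a median log2 fold change of 5.60. Sox11, an SRY-box factor of newborn neurons, was at 1887, 1835 and 1815 normalized counts in the E15 pools and rested on 0, 3 and 2 adult reads, a fitted 772-fold difference (log2 9.59, SE 0.29, edgeR adjusted p 1.67e-08). The ratio of counts was 1291 (exact 95% interval 357 to 10663) without Adult replicate 2, where 2 adult reads of Sox11 remained. Its related factor Sox4 was also kept in the adult and was 6.26-fold higher at E15. Bcl11b, a zinc finger factor of deep-layer projection neurons, was 60.5-fold higher. Nhlh1, a basic helix-loop-helix factor of newborn neurons, was at 505, 123 and 281 at E15 with no adult read, and so at least 219.7-fold higher (at least 148-fold without E15 replicate 1). Sox11 was as high in E15 replicate 2 as in the other E15 pools, and Nhlh1 was lowest there.

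Of the cytoskeletal and growth cone genes 14 of 14 found (22 listed) were higher at E15, with a median log2 fold change of 3.14. Tubb2b, a beta-tubulin of developing neurons, was 79.7-fold higher (log2 6.32, SE 0.36, edgeR adjusted p 4.68e-07). Marcks and Marcksl1, which bind actin and the membrane, were 19.7-fold and 23.8-fold higher. Map1b, a microtubule-associated protein of growing axons, was 2.50-fold higher and was at 4760 to 5663 reads in the adult pools. Of the RNA-binding proteins 9 of 9 found (12 listed) were higher at E15. Their folds among the genes of highest count ran from 1.70 for Nova1, a neuronal splicing factor, to 11.2 for Elavl2 (HuB). Between them lay Rbfox2, a splicing factor, at 2.54 and Ptbp2, a splicing repressor, at 3.67. Normalized counts of Elavl2 were 912, 204 and 352 at E15, against 11.3, 97.4 and 20.6 in the adult. Elavl2 had the same order of pools as Elavl4 at both ages, and its fold was 29.8 without Adult replicate 2 and 6.32 without E15 replicate 1. The call of Nova1 (edgeR adjusted p 0.0193) was lost in 4 of the 6 fits with a pool left out, at adjusted p 0.0569 to 0.0875.

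Neuronal adhesion genes were mixed, with 6 of 9 found (12 listed) higher at E15. Ncam1, the neural cell adhesion molecule, was 7.22-fold higher, Nfasc (neurofascin) 2.85-fold and Astn1 (astrotactin, an adhesion protein of neurons migrating on glia) 20.1-fold. Adult replicate 2 held 47 of the adult reads of Astn1, beside 3 and 1 in the other pools, and without it the folds were 154 for Astn1 and 11.3 for Ncam1. Cntn1, which encodes contactin 1, was 4.81-fold higher in the adult, with 71908 to 76219 normalized counts there and 14855 to 15686 at E15 (log2 -2.27, SE 0.09, edgeR adjusted p 6.14e-08). L1cam (log2 1.02, adjusted p 0.17 in edgeR) and Nrcam (0.65, 0.378) did not pass the test. L1cam was at 15.6, 92.2 and 23.3 in the adult pools and Nrcam at 65.1, 173 and 17.9, so that both were highest in Adult replicate 2. Without that pool both were called as higher at E15 (L1cam 4.47-fold, edgeR adjusted p 0.00699, and Nrcam 3.19-fold, 0.0308), and 8 of the 9 genes were.

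Of the receptors and intracellular partners of Reelin, 6 of 10 genes found (13 listed) were higher at E15 and 3 in the adult, where 50.3% and 41.7% of the genes tested that the authors list were called in these directions, and nothing is read from the split. Dab1, the adaptor phosphorylated when Reelin binds, was at 74.5, 41.6 and 59.6 normalized counts at E15, against 5.66, 7.79 and 9.61 in the adult, 7.49-fold higher at E15 (log2 2.91, SE 0.42, edgeR adjusted p 0.000235). Of the kinases that phosphorylate it, Fyn was 19.0-fold and Src 2.11-fold higher at E15, and the downstream adaptor Crkl was 2.03-fold higher. Vldlr, a Reelin receptor, was at 568, 549.8 and 573 at E15, against 1237, 1192 and 1349 in the adult, 2.23-fold higher in the adult (log2 -1.16, SE 0.11, edgeR adjusted p 1.27e-05). With scaling by total counts only the log2 fold change of Vldlr was -0.35 (edgeR adjusted p 0.0169). The ligand Reln and the receptor Vldlr were thus higher in the adult, and the adaptor Dab1 was higher at E15. Lrp8, also listed, was not among the 10 genes found.

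Cdk5, a kinase of neuronal migration, was 2.90-fold higher in the adult, and its activator Cdk5r1 (p35) was 15.8-fold higher at E15, where it was at 111, 36.2 and 94.9 and lowest in E15 replicate 2. The fold of Cdk5r1 was 28.2 without Adult replicate 3, where 7 of its adult reads lay beside 2 in each other pool. Its other activator Cdk5r2 (p39) had 0 to 13 reads per pool and did not pass the test (log2 1.79, edgeR adjusted p 0.102). Pafah1b1 (Lis1), a dynein regulator, was 1.66-fold higher in the adult (edgeR adjusted p 0.00253), but with scaling by total counts only the log2 fold change turned from -0.73 to 0.07 (0.693). No other gene of the 5 lists changed direction with the scaling.

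Among the cell type markers, those of Cajal-Retzius cells and the cortical hem were higher at E15 in 14 of 14 found (18 listed), with a median log2 fold change of 6.30 and summed normalized counts of 12456 to 13115 at E15 and 68.0 to 165 in the adult. Wnt8b, a hem signal, was 485-fold higher, with 1, 0 and 6 adult reads (312-fold without Adult replicate 2, and a ratio of 2327 from 1 adult read, with an exact 95% interval of 417 to 91917, without Adult replicate 3), and Rspo2, which enhances Wnt signalling, was 169-fold higher. Reln, the gene by which Cajal-Retzius cells are best known, did not share their direction. Neural progenitor markers were higher at E15 in 13 of 13 found (16 listed), among them Gli3 by 22.0-fold, Slc1a3 by 4.49-fold (7.27-fold without Adult replicate 2) and Sox2 by 1.93-fold. Of the adult neuron markers 4 were higher at E15, 6 were higher in the adult and Gad2 did not pass the test (log2 -1.80, edgeR adjusted p 0.103), though it did without Adult replicate 1 (-2.36, 0.0165). Slc17a6, a vesicular glutamate transporter, was 9.15-fold (28.1-fold without Adult replicate 2) and Gria2, a glutamate receptor subunit, 3.17-fold higher at E15, and the synaptic vesicle genes Syt1 and Syp were 2.19-fold and 2.69-fold higher in the adult. The call of Syp was also lost without E15 replicate 2 (adjusted p 0.112 in edgeR) and without E15 replicate 3 (0.0778). Of the adult neuron markers, 3 were higher in the adult without Adult replicate 2, and with scaling by total counts only 2 were.

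The remaining lists were counted in the same way, beside the same shares of 50.3% at E15 and 41.7% in the adult. Proliferation markers were higher at E15 in 6 of 6 found (9 listed), endothelial markers in 6 of 6 (9 listed) and erythroid markers in 7 of 7 (8 listed). Of 8 mesenchymal markers 6 were higher at E15, the other 2 in the adult. Of the oligodendrocyte markers 5 were higher in the adult (3 with scaling by total counts only), 2 were higher at E15 (0 to 2 with a pool left out) and Sox10 did not pass the test (log2 -1.74, edgeR adjusted p 0.185, but 0.23 without Adult replicate 1 and -2.35, called at 0.0353, without Adult replicate 3), and 3 of 3 astrocyte markers were higher in the adult. Peripheral neuron markers were higher at E15 in 3 of 3 found (10 listed), with sums of 40.0 to 58.1 at E15 and 0 to 6.49 in the adult.

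The genes whose profile over the 6 pools was most like that of the members were sought among 7194 named genes with a mean E15 count over 100. Likeness was the Pearson correlation of log2 normalized counts with the mean profile of the 9 genes, given as a description over 6 points that share libraries. The 10 closest genes had correlations of 0.987 to 0.995, and among them were Adam23 (0.993), Znf286a (0.992), Mpped1 (0.990) and Elavl2 (0.989), followed by Pak3, Tmem35, Tlr4 and Sirpa at 0.987. Of these 10 genes, 10 were called as higher at E15 and 10 had their highest adult value in Adult replicate 2, both of which the measure favours. With Reln left out of the mean profile, 8 of the 10 were chosen again.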

How the data were processed

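Total RNA of the plexus pools was made into 6 libraries with an Illumina kit for mRNA sequencing, 3 for each labelled age. The deposited values are whole-number read counts per Ensembl gene. The authors trimmed 100 bp reads, aligned them to rat Ensembl release 61 (Bowtie 0.12.7), kept reads with a single place and counted them with HTSeq 0.4.7p4 (union option), without normalization. Strand was not given in the sources used here, so overlapping genes cannot be told apart. A deposited table of the authors holds log2 fold changes, log2 abundances, p-values and adjusted p-values from edgeR 2.4.0 for the 10653 genes they called. These values were not used, and only the gene names were taken from it.

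The ages were compared with edgeR 4.0.16 (TMM scaling, quasi-likelihood test, age as the only term) in R 4.3.3, on 16643 genes with more than 10 counts in all, with Benjamini-Hochberg adjustment. The common dispersion was 0.0332. The test was first tried on simulated counts with 200 changed genes and the same dispersion for every gene. That setting is simpler than these data, so the trial says nothing about genes as variable between pools as the members. A gene without reads at an age was given a floor of 3 counts over its pools. Folds over this floor leave out the spread between pools, and exact 95% intervals of count ratios cover counting error only. The pools are separate pools of animals, so p-values measure the spread between pools.

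The members and all lists were chosen with earlier results of these data known. The 16 lists hold 202 distinct symbols, matched by the authors' name, or through a RefSeq accession (6) or an older symbol (2). Named from each list were up to 4 genes of highest mean count and those that did not pass the test where these were 3 or fewer. From the whole series 10 genes were chosen by likeness. The results of some genes are not reported here. Dab1, Fyn, Src, Cdk5r1, Snap25 and the transcription factors of the closing section were chosen after their values were seen. Alternatives were RLE, upper quartile and total count scaling with and without the top 10 genes, no filter, filterByExpr, DESeq2 1.42.0, limma-voom (limma 3.58.1), edgeR's exact test, a replicate block, a pseudocount of 5 and each pool left out. Chosen after seeing the data were the removal of both second pools and a likeness profile without Reln. Python 3.11.15 was used with pandas 2.3.3 and numpy 2.4.6 for lists, scipy 1.17.1 for intervals and matplotlib 3.10.9 for figures.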

Additional observations from a re-analysis of the deposited data

How the results depend on the processing

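Of 153 alternative values of the 9 members' fold changes, 148 kept their direction and their side of the threshold and 0 reversed. Scaling by total counts only gave 9799 genes higher at E15 and 2292 higher in the adult (5773 and 4879 as reported), and total counts without the 10 highest genes gave 3196 higher in the adult. These scalings moved the median of all genes from 0.14 to 0.94 and 0.60 (log2). Gap43 passed the threshold in the exact test of edgeR under 1 common dispersion (log2 0.92, adjusted p 0.000244). The authors used a test of this kind and list Gap43 among the genes they called, unlike the main fit here. In a fit chosen after seeing the data, without both second pools, Gap43 also passed (3.08, edgeR adjusted p 0.00204), and 8 members were higher at E15. With a pseudocount of 5 the members' median log2 ratio in Adult replicate 2 was 1.27.

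With 1 pool left out in turn, the number of members higher at E15 ran from 6 to 8, genes higher at E15 from 5009 to 6218 and in the adult from 4327 to 5449. The log2 fold changes ran from 1.65 to 3.77 for Stmn2 and 0.35 to 2.71 for Gap43, which lost or gained their calls as given above, and from 3.11 to 3.97 for Tubb3, 2.96 to 4.05 for Elavl3, 2.77 to 4.97 for Elavl4, 4.63 to 5.30 for Crmp1 and -2.60 to -2.45 for Reln. Without both second pools that of Stmn2 was 4.17. Those of Dcx (6.31 to 8.59) and Tbr1 (5.85 to 10.42) reach their upper ends without Adult replicate 2, where 2 and 0 adult reads remain and the fitted value is no bound.

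Deviations of pools with the same replicate number correlated at -0.00722, -0.0105 and -0.0384 over genes. No shared deviation was thus seen, which cannot show whether such pools were collected or processed together. With a replicate block 5320 genes were higher at E15 and 4608 in the adult, 7 members were higher at E15 and 1 in the adult, and the log2 fold changes of Stmn2 and Gap43 were 2.50 (edgeR adjusted p 0.0256) and 1.62 (0.196). Low adult counts limit the members most: Tbr1, Dcx, Elavl3 and Elavl4 rest on 4, 10, 25 and 31 adult reads in all.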

Other observations

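The neurogenic and patterning factors of the lists differed among the E15 pools in both directions. The genes given here were chosen after their values were seen. Neurod6, a basic helix-loop-helix factor of cortical projection neurons, had 423, 7 and 183 reads at E15 and none in the adult. Summed over the E15 pools, Neurod6 was 119-fold above a floor of 3 adult counts. This value leaves out the spread between E15 pools, and the fitted log2 fold change of Neurod6 was 10.37 with an SE of 2.46. Bhlhe22, a related factor, had 309, 21 and 148 reads at E15, and Emx1, a homeobox gene of the dorsal cortex, had 249, 51 and 219. In these 3 genes E15 replicate 2 was the lowest pool. Barhl2, a homeobox gene of the cortical hem, had 68, 502 and 357 reads at E15 and none in the adult. Its summed E15 counts were 179-fold above the same floor, again without the spread between E15 pools (fitted log2 10.91, SE 1.52). Lhx5, a LIM homeobox gene of the hem and of Cajal-Retzius cells, had 249, 550 and 470. In this pair E15 replicate 2 was the highest pool and E15 replicate 1 the lowest.

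Genes of the Cajal-Retzius list were not uniform either. Calb2, the calcium-binding protein calretinin, had 62, 22 and 49 reads at E15, against 1, 7 and 1 in the adult, and Lhx9 had 132, 54 and 150 at E15, against 0, 5 and 0 in the adult. Both were lowest in E15 replicate 2 and highest in Adult replicate 2, as were the 8 members other than Reln. Rspo2, in contrast, had 5819, 6091 and 6157 reads at E15. The cause of these differences was not tested.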
